A study of Mus musculus with 18 samples.

Results

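Expression of 10 genes of the antioxidant and metal-binding defence was followed across the 6 groups of an RNA-seq experiment in mouse brown adipocytes. They are Gclc, Gclm, Gsr, Txnrd1, Srxn1, Nqo1, Hmox1 and Osgin1, which are commonly counted among the targets of the transcription factor NRF2, and the metallothioneins Mt1 and Mt2. The members were picked by gene symbol, are 10 of the 20295 genes in the count table, and all 10 passed the filter on low counts that left 12156 genes for testing.

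NRF2 (gene Nfe2l2) is held at a low level by KEAP1, which hands it to a CUL3 ubiquitin ligase. Oxidants and electrophiles modify KEAP1, and NRF2 then accumulates, pairs with a small MAF protein and binds the antioxidant response element (ARE) of genes for glutathione synthesis, thiol reduction and detoxification. BACH1 occupies the same elements as a repressor. Metallothioneins are small cysteine-rich proteins that bind zinc and copper, and their genes are switched on by the zinc sensor MTF1 through metal response elements (MREs). In brown fat, metallothionein is known to be induced by cold.

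The cells were BAT-LgT, 1 line of wild-type brown preadipocytes that carries the SV40 large T antigen, differentiated in culture and treated on day 7. For 3 h they then received DMSO as Vehicle, isoproterenol (ISO) at 100 nM, which activates β-adrenergic receptors, or SR-3420, an ABHD5 ligand that activates the lipase ATGL without a receptor signal. The groups Vehicle, ISO and SR-3420 received no inhibitor, and those named Lipase Inh. + Vehicle, or likewise with ISO or SR-3420, were first exposed to inhibitors of ATGL and HSL for 1 h. Each group had 3 libraries. The labels give 10 µM for SR-3420 and the text of the study another dose, and which applies to these samples was not settled. The labels do not say that the libraries of a group came from separate cultures, while the methods of the study describe its sequencing data as coming from repeated independent experiments. The p-values measure the spread between these samples.

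Total counts lay between 10310447 and 21205032 in 17 libraries, and replicate 2 of Lipase Inh. + SR-3420 stood apart with 4263755 counts, 18.3% of them from Lars2. Every count of members past a threshold that involves this library was the same without it. Summed over 6 adipocyte markers, all of them tested, levels lay between 8518 and 13931 CPM, counts scaled to the size of the library. The Vehicle libraries lay between 10122 and 11228 CPM. Those of ISO were all higher, from 12440 CPM upwards, as were those of SR-3420, from 11644 CPM upwards. Inhibitors alone gave lower sums, of at most 9714 CPM. Lipase Inh. + ISO (10146 to 10476) and Lipase Inh. + SR-3420 (10150 to 11021) overlapped Vehicle. What part these differences have in the results was not tested. The sum over the brown adipocyte list, 5 of 6 genes tested, was 72.2 to 112 CPM with Vehicle, between 417 and 684 CPM with ISO, and between 661 and 907 CPM with Lipase Inh. + ISO. Most of that rise was Ucp1, at a mean of 2.69, 364 and 675 CPM in these groups, while Cidea was at 56.97, 65.9 and 49.6 CPM and Cox7a1 at 1.07, 1.09 and 1.82 CPM. The preadipocyte list, 6 of 6 tested, summed to 200 to 213 CPM with SR-3420 and 134 to 186 CPM with Vehicle, and its part in the SR-3420 results was not tested. Of the macrophage list, Adgre1 was not analysed here and Ptprc had 0 counts in every library, but Cd68 was detected at 1.96 to 5.88 CPM. It rose with ISO (log2 fold change 0.74 ± 0.27, adjusted p 0.0283), and its part in the ISO results was not tested. A lower number of cells of a type and less RNA per cell cannot be told apart in such bulk samples.

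The promoters of 4 members are shown because they hold the recognition letters of the pathways above, and because Mt1 and Mt2, neighbours on chromosome 8, carry the same kind of element. Each window runs from 250 bases before the RefSeq start to 30 bases after it, on the mm9 build, and all 4 genes lie on the plus strand. The windows are chr8:96702739-96703018 for Mt1, chr8:96696268-96696547 for Mt2, chr2:151931010-151931289 for Srxn1 and chr8:121960812-121961091 for Osgin1. Capitals mark MREs (TGCACNC or TGCGCNC) in Mt1 and Mt2, a site that is both an ARE (TGACNNNGC) and an NF-E2-type site (TGANTCAGC) in Mt2, and an NF-E2-type site in Srxn1 and Osgin1, each searched on both strands.
Mt1: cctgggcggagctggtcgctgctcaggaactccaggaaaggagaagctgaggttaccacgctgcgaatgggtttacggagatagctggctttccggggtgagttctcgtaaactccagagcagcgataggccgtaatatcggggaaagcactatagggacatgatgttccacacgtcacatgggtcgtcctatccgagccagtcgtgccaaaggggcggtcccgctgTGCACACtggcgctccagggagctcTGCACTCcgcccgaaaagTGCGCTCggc
Mt2: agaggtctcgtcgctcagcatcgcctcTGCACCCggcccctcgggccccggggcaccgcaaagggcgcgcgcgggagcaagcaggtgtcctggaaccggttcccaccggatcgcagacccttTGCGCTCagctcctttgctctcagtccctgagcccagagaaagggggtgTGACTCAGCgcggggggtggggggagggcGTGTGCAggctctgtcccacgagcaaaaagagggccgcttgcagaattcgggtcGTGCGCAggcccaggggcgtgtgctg
Srxn1: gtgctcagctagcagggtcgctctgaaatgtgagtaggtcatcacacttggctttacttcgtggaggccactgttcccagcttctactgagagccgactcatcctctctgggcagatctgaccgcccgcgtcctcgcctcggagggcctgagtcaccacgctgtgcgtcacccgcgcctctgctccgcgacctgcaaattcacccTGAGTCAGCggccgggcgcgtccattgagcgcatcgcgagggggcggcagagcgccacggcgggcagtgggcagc
Osgin1: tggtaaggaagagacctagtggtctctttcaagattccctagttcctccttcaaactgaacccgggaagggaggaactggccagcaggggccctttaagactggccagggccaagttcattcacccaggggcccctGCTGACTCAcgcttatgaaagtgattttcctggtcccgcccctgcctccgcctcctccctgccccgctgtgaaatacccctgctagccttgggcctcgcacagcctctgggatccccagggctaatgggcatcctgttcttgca

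Mt1 held 3 MREs, Mt2 held 4, Gclm 2 and Srxn1 1, the last from position -19 to -13 and not marked in the sequence above. At least 1 was found in 4 of the 10 members and in 28.8% of the 20295 windows of this length. At least 3 were found in 2.32% of the windows and at least 4 in 0.547%. The NF-E2-type letters, which were chosen after the sequences had been seen, occurred in 1.01% of the windows and in 3 of the 10 members, from position -45 to -37 in Srxn1, from -114 to -106 on the reverse strand in Osgin1 and from -79 to -71 in Mt2. The ARE letters occurred in 12.2% of the windows and in the 2 members Gclm and Mt2. The cyclic AMP response element TGACGTCA was found in 0 members and in 2.48% of the windows. These matches describe letters in a short window and not sites of binding.

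With ISO, 7 of the 10 genes rose and 3 fell against Vehicle, where "rose" and "fell" mean an adjusted p of at most 0.05 by edgeR's quasi-likelihood test, Benjamini-Hochberg adjusted over all genes tested. Of all genes tested, 51.8% passed in either direction, 26.8% upwards and 25.0% downwards. With a change of at least 2-fold as a second condition, Hmox1, Osgin1, Srxn1 and Gclc were higher and none was lower, against 5.03% of all genes upwards. Gclc lay close to that limit, with a log2 fold change of 0.74 on total counts and 0.98 without replicate 1 of Vehicle, and Mt2 just under it reached up to 1.08 when 1 library was left out (without replicate 3 of ISO). With single libraries left out, 3 to 5 members passed both conditions. The median log2 fold change was 0.72 over the 10 genes and -0.021 over all genes tested. SR-3420 raised 4 of the genes and lowered 3, with 51.4% of all genes past the same threshold (26.0% upwards and 25.4% downwards), and Osgin1, Hmox1 and Mt2 rose at least 2-fold, against 3.97% of all genes upwards. ISO and SR-3420 were compared with the same Vehicle libraries, so their values are given side by side. Scaling on total counts instead of TMM factors shifted the median gene by -0.31 (log2) with ISO, -0.16 with SR-3420, -0.23 with ISO under inhibitors, and -0.15 and -0.13 for ISO against SR-3420 without and with inhibitors, and changes are stated relative to these shifts.

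**Figure D1:**
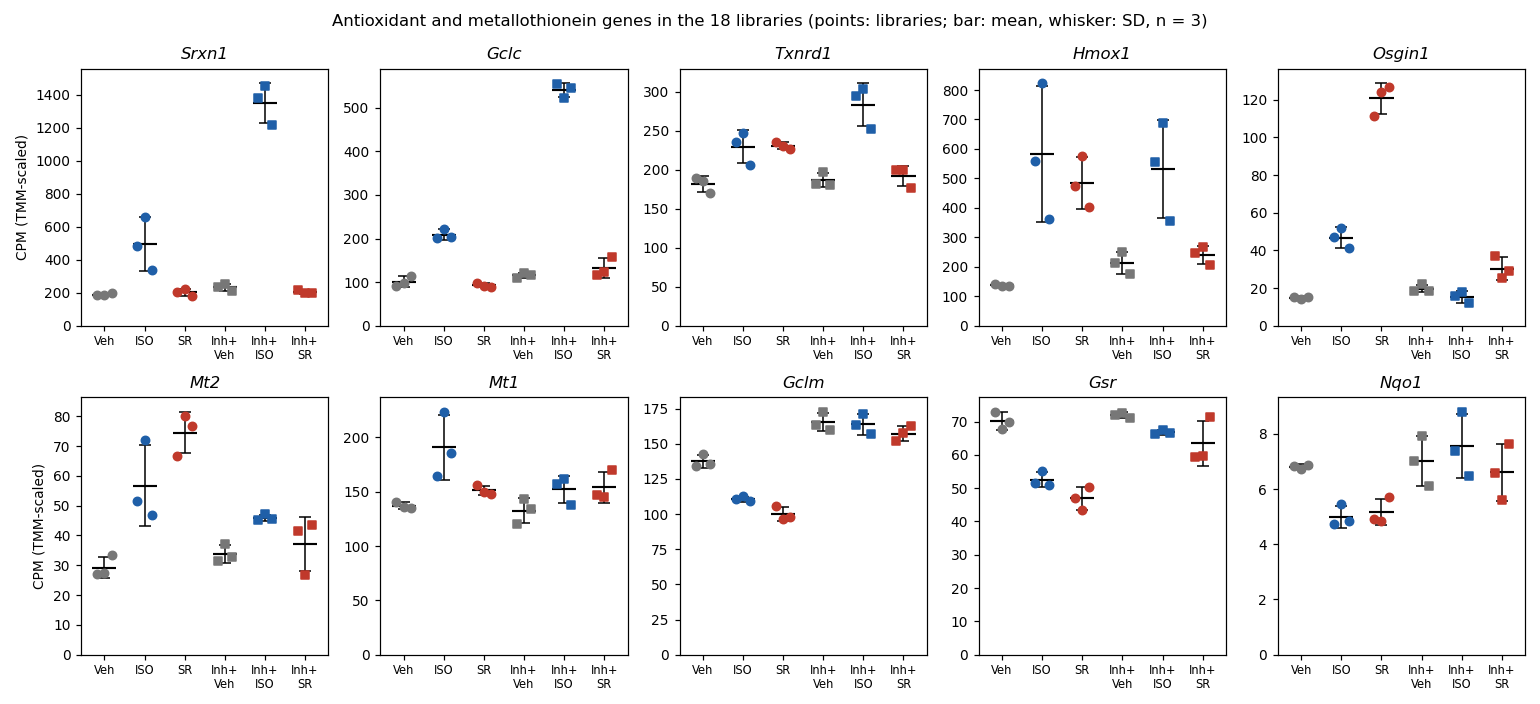
Level of each gene in the 18 libraries, in TMM-scaled CPM on axes that start at 0, for the 6 groups on the horizontal axis. Points are libraries, the bar is the mean and the whisker the SD (n = 3), circles are groups without and squares with lipase inhibitors. Srxn1 and Gclc were highest in Lipase Inh. + ISO (1351 and 540 CPM), Osgin1 in SR-3420 (121 CPM).

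The rate-limiting step of glutathione synthesis is carried out by glutamate-cysteine ligase, whose catalytic subunit is Gclc (mm9 chromosome 9, 77602342 to 77642296) and whose modifier subunit is Gclm (chromosome 3, 121948475 to 121970133). The subunits moved in opposite directions with ISO. Gclc was at 91.8, 97.3 and 115 CPM in the Vehicle libraries and at 200.5, 223 and 203 CPM with ISO, without overlap, which is a rise of 1.05 ± 0.10 (log2 ± SE, adjusted p 7.82e-09). With inhibitors present the libraries were at 109, 121 and 117 CPM for Vehicle and at 553, 522 and 545 CPM for ISO. ISO thus raised Gclc by 2.22 ± 0.10 on the log2 scale under inhibitors (adjusted p 3.16e-14), and the difference between both responses, the interaction, was 1.17 ± 0.13 (adjusted p 6.14e-07). With SR-3420, Gclc was at 98.5, 91.3 and 89.5 CPM, which overlaps Vehicle. The log2 fold change was -0.12 with a 95% interval from -0.33 to 0.090 (12 residual degrees of freedom) and an adjusted p of 0.313, but -0.28 with an adjusted p of 0.0369 on total counts.

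Gclm was at 135, 143 and 135 CPM with Vehicle, at 110, 113 and 109 CPM with ISO and at 106, 96.3 and 97.6 CPM with SR-3420. Neither treatment overlapped Vehicle, and Gclm fell by 0.31 ± 0.06 with ISO (log2, adjusted p 0.000176) and by 0.46 ± 0.06 with SR-3420 (adjusted p 1.75e-06). Under inhibitors the 3 groups overlapped, at 160 to 173 CPM for Vehicle, 157 to 171 CPM for ISO and 152 to 163 CPM for SR-3420. The interactions were 0.30 ± 0.08 for ISO (adjusted p 0.00978) and 0.39 ± 0.09 for SR-3420 (adjusted p 0.00164). On total counts, however, Gclm was also lower with ISO under inhibitors, by -0.24 (adjusted p 0.0143) where TMM gave -0.013. The span of Gclm, 21659 bases with introns included, is overlapped over 11258 bases by Gm17494, a gene on the other strand. How much of this falls in the 2072 bases counted for Gclm was not determined. Reads from any counted bases shared by both cannot be told apart, since no source says whether the counting used strand.

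Within a library the ratio of Gclc to Gclm, each per kilobase counted, does not depend on the scaling. It was 0.446 ± 0.0581 (SD, n = 3) with Vehicle, 1.14 ± 0.0507 with ISO and 2.00 ± 0.137 with Lipase Inh. + ISO. With SR-3420 the ratio was 0.563 ± 0.00943, and without stimulation under inhibitors it was 0.424 ± 0.0194. The ISO libraries, with or without inhibitors, lay above all others, from 1.098 upwards, where no other library exceeded 0.587.

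Glutathione reductase, Gsr (chromosome 8, 34763710 to 34808634), which returns oxidised glutathione to its reduced form, followed Gclm rather than Gclc. Its libraries were at 72.9, 67.8 and 69.9 CPM with Vehicle, at 51.5, 55.1 and 50.9 CPM with ISO and at 47.0, 43.5 and 50.3 CPM with SR-3420. Gsr fell by 0.42 ± 0.08 with ISO (log2, adjusted p 8.17e-05) and by 0.58 ± 0.08 with SR-3420 (adjusted p 1.60e-06), in both cases without overlap with Vehicle. Under inhibitors it was at 71.0 to 72.7 CPM with Vehicle, 66.2 to 67.4 CPM with ISO and, with SR-3420, 59.5 to 71.3 CPM, and neither change passed the test (-0.11 with adjusted p 0.221, and -0.17 with adjusted p 0.281). On total counts the change with ISO under inhibitors was -0.33 (adjusted p 0.00423). The interactions were 0.31 ± 0.11 for ISO (adjusted p 0.0290) and 0.41 ± 0.11 for SR-3420 (adjusted p 0.00626). The span of Gsr, introns included, overlaps the small nucleolar RNA gene SNORA48 over 144 bases, and whether these are among the bases counted was not determined. The ISO interaction exceeded an adjusted p of 0.05 when any of 6 single libraries was left out (replicate 1 of Vehicle, 1 or 3 of ISO, 1 or 3 of Lipase Inh. + Vehicle, or 2 of Lipase Inh. + ISO), at a log2 value of at least 0.28.

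Srxn1 encodes sulfiredoxin, which restores over-oxidised peroxiredoxins, and lies on chromosome 2 from 151931260 to 151937112. Its Vehicle libraries were at 186, 184 and 197 CPM and its ISO libraries at 487, 661 and 337 CPM, all above Vehicle but widely spread. Srxn1 rose by 1.39 ± 0.15 with ISO (log2, adjusted p 6.83e-08), a 2.62-fold change. Under inhibitors it went from 233, 252 and 213 CPM to 1384, 1451 and 1216 CPM, the highest values of any member in any library, a 5.80-fold change. The interaction was 1.15 ± 0.20 (adjusted p 0.000172). With SR-3420, Srxn1 was at 205, 223 and 182 CPM and overlapped Vehicle, with a log2 fold change of 0.11 (95% interval from -0.21 to 0.42, adjusted p 0.573) that turned to -0.054 on total counts. Its promoter, like that of Osgin1, is among the 3 with the NF-E2-type letters, which were chosen after the sequences had been seen.

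Txnrd1 (chromosome 10, 82296696 to 82360469), the cytosolic thioredoxin reductase, changed less. It was at 189, 186 and 171 CPM with Vehicle, 235, 247 and 206 CPM with ISO and 236, 231 and 227 CPM with SR-3420. Both treatments lay above Vehicle without overlap, with log2 fold changes of 0.34 ± 0.08 (adjusted p 0.00115 for ISO and 0.000975 for SR-3420). Neither call held on total counts, where the values were 0.028 (adjusted p 0.802) and 0.18 (adjusted p 0.0923). Under inhibitors ISO raised Txnrd1 to 294, 304 and 252 CPM from 182, 197 and 180 CPM, by 0.60 ± 0.08 on the log2 scale (adjusted p 1.05e-06, and 0.000956 on total counts). The ISO interaction of 0.27 ± 0.11 had an adjusted p of 0.0744. It passed with the replicate number as a block in the fit (0.26, adjusted p 0.0127), on total counts (0.35, adjusted p 0.0429) and in 3 of 12 fits with 1 library left out. The SR-3420 interaction of -0.31 ± 0.11 (adjusted p 0.0465) stayed past the threshold in 2 of the 12 fits with 1 library left out, those without replicate 1 of Vehicle or replicate 2 of Lipase Inh. + SR-3420, and had an adjusted p of 0.153 on total counts. Eid3 lies inside Txnrd1 on the same strand and had 5 to 30 counts per library, where Txnrd1 had 748 to 4967.

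**Figure D2:**
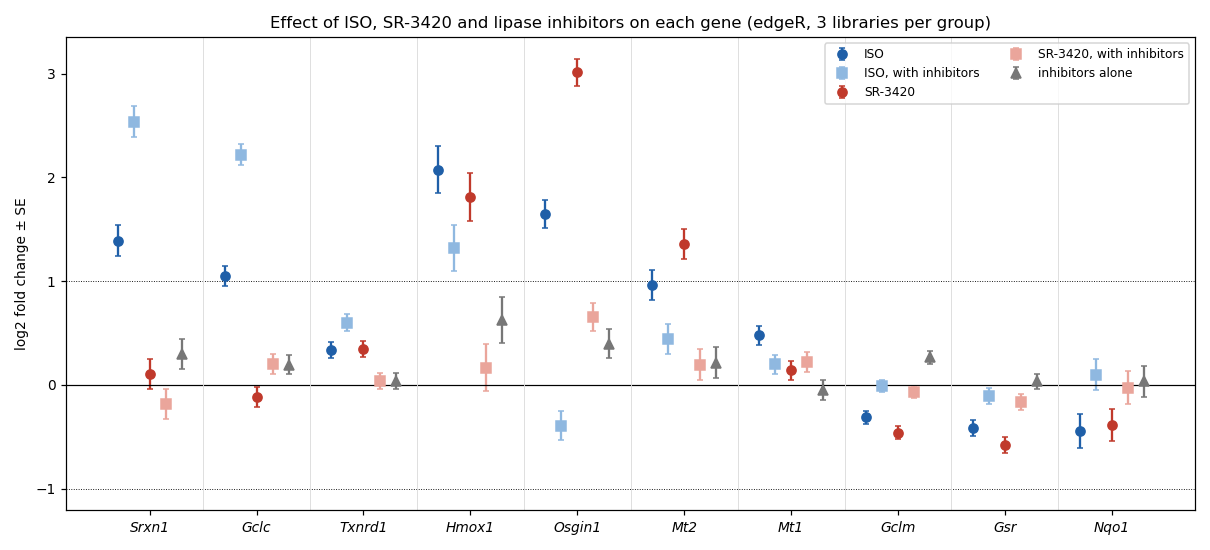
log2 fold change ± SE of each gene (vertical axis, edgeR, 3 libraries per group) for ISO and SR-3420 without and with inhibitors and for the inhibitors alone. Dotted lines mark a 2-fold change. ISO under inhibitors gave the largest values for Srxn1 (2.54) and Gclc (2.22), and SR-3420 without inhibitors gave that of Osgin1 (3.01).

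Haem oxygenase 1, Hmox1 (chromosome 8, 77617517 to 77624492), breaks haem down to biliverdin, carbon monoxide and iron. It was at 143, 136 and 135 CPM with Vehicle, at 558, 823 and 364 CPM with ISO and at 473, 577 and 404 CPM with SR-3420. Both treated groups lay above Vehicle and overlapped each other, with log2 fold changes of 2.08 ± 0.23 (adjusted p 1.35e-07) and 1.81 ± 0.23 (adjusted p 1.08e-06). ISO and SR-3420 differed by 0.27 (95% interval from -0.21 to 0.74, adjusted p 0.388), and by -0.072 without replicate 2 of ISO. Under inhibitors Hmox1 was at 214, 250 and 177 CPM with Vehicle, 557, 687 and 356 CPM with ISO and 247, 267 and 207 CPM with SR-3420. The SR-3420 libraries now overlapped Vehicle (log2 fold change 0.17 ± 0.23, adjusted p 0.782) and the ISO libraries did not (1.32 ± 0.22, adjusted p 3.14e-05). The interaction was -1.64 ± 0.32 for SR-3420 (adjusted p 0.000556) and -0.76 ± 0.31 for ISO (adjusted p 0.0721). The latter passed the threshold without replicate 3 of ISO (-0.998, adjusted p 0.00863) or replicate 2 of Lipase Inh. + ISO (-0.98, adjusted p 0.0246). It also passed without the filter on low counts (-0.75, adjusted p 0.00606) and with the replicate number as a block in the fit (-0.72, adjusted p 0.00160). With 1 library left out, however, only 2 of 12 fits passed. The value then ran from -0.998 to -0.42, with an adjusted p of up to 0.278. On total counts the ISO interaction did not pass (-0.67, adjusted p 0.0863). In each of the 6 groups the library numbered 3 had the lowest Hmox1 level, and in 5 of them the library numbered 2 had the highest.

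Osgin1 (chromosome 8, 121961062 to 121970156), a stress-induced inhibitor of cell growth, had the largest response to SR-3420 among the 10 genes. It was at 15.5, 13.99 and 15.4 CPM with Vehicle, at 47.3, 52.1 and 41.2 CPM with ISO and at 112, 124 and 127 CPM with SR-3420, and these 3 groups did not overlap. Osgin1 rose by 1.65 ± 0.13 with ISO (log2, adjusted p 1.31e-09) and by 3.01 ± 0.13 with SR-3420 (adjusted p 1.40e-13), 8.06-fold for the latter. The difference of ISO from SR-3420 was -1.36 ± 0.12 (adjusted p 2.26e-08). Under inhibitors Osgin1 was at 18.6, 22.2 and 18.6 CPM with Vehicle, 15.9, 17.8 and 12.01 CPM with ISO and 36.9, 25.3 and 29.1 CPM with SR-3420. The interactions were -2.04 ± 0.19 for ISO (adjusted p 4.59e-08) and -2.36 ± 0.19 for SR-3420 (adjusted p 1.42e-08). The remaining changes were small. Osgin1 fell by 0.39 ± 0.14 with ISO under inhibitors (adjusted p 0.0205), a call lost without replicate 2 of Lipase Inh. + Vehicle (-0.31, adjusted p 0.0967) or replicate 3 of Lipase Inh. + ISO (-0.22, adjusted p 0.204). It rose by 0.66 ± 0.14 with SR-3420 under inhibitors (adjusted p 0.00562), lost without replicate 1 of Lipase Inh. + SR-3420 (0.49, adjusted p 0.0586).

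Nqo1 (chromosome 8, 109912125 to 109927105, minus strand), the quinone reductase often used as a readout of NRF2, was the least expressed member, with 21 to 128 counts per library. It was at 6.83, 6.72 and 6.88 CPM with Vehicle, 4.72, 5.46 and 4.83 CPM with ISO and 4.92, 4.86 and 5.71 CPM with SR-3420. Both treated groups lay below Vehicle, with log2 fold changes of -0.44 ± 0.16 (adjusted p 0.0247) and -0.39 ± 0.16 (adjusted p 0.0411). Both calls were fragile. The ISO call was lost without replicate 1 or 3 of ISO or replicate 1 of Vehicle (adjusted p up to 0.0908), and the SR-3420 call in 5 of 6 fits with 1 library left out, all but that without replicate 3 of SR-3420, and with DESeq2 (adjusted p 0.0736). The SR-3420 call was also lost without the filter on low counts (adjusted p 0.0780) and with only the groups compared in the fit (adjusted p 0.0511). Under inhibitors Nqo1 was at 5.60 to 8.79 CPM in all 9 libraries and the groups overlapped. Neither interaction passed, at 0.54 ± 0.22 for ISO (adjusted p 0.0642) and 0.36 ± 0.22 for SR-3420 (adjusted p 0.237). The ISO interaction passed in 2 of 12 fits with 1 library left out (adjusted p 0.0341 to 0.172 over the 12).

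**Figure D3:**
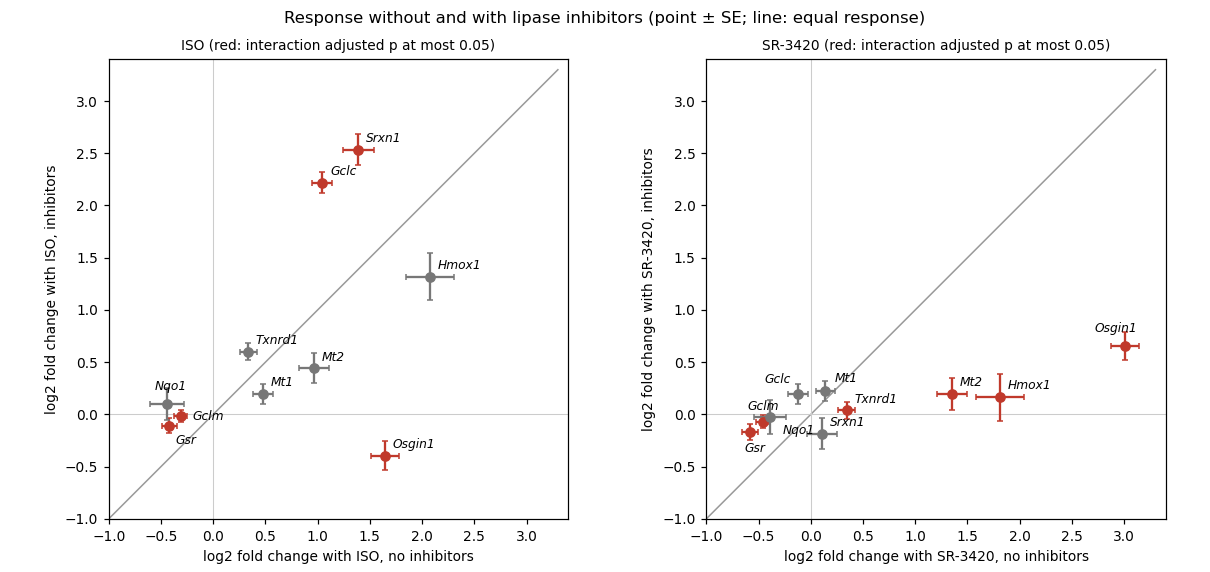
log2 fold change of each gene without inhibitors (horizontal axis) and with inhibitors (vertical axis), ± SE, for ISO on the left and SR-3420 on the right. The diagonal marks equal responses and red points have an interaction with an adjusted p of at most 0.05. Srxn1 and Gclc lay above the diagonal for ISO, and Osgin1 lay below it for both stimuli.

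The metallothioneins Mt1 (chromosome 8, 96702989 to 96704227) and Mt2 (96696518 to 96697467), shown with their promoters above, are separated by 5521 bases. Mt2 was at 26.9, 27.4 and 33.3 CPM with Vehicle, 51.4, 72.0 and 46.7 CPM with ISO and 66.8, 80.0 and 76.7 CPM with SR-3420. Both stimuli lay above Vehicle without overlap, and Mt2 rose by 0.96 ± 0.15 with ISO (log2, adjusted p 9.96e-06) and by 1.36 ± 0.14 with SR-3420 (adjusted p 1.02e-07). Under inhibitors Mt2 was at 31.5, 37.2 and 32.7 CPM with Vehicle, at 45.2, 47.1 and 45.5 CPM with ISO and at 41.5, 26.6 and 43.4 CPM with SR-3420, the value of 26.6 coming from the shallow library. The SR-3420 interaction was -1.16 ± 0.21 (adjusted p 0.000258). ISO still raised Mt2 under inhibitors by 0.44 ± 0.14 (adjusted p 0.0123), but not on total counts (0.22, adjusted p 0.244) and not without replicate 1 of Lipase Inh. + Vehicle (0.40, adjusted p 0.0515). The ISO interaction of -0.52 ± 0.21 had an adjusted p of 0.0581. It passed the threshold with DESeq2 (adjusted p 0.0485), with only the groups compared in the fit (0.0412) and without the filter on low counts (0.0221). The same held with the replicate number as a block (0.0296) and without replicate 3 of Vehicle (0.0308) or of ISO (0.0218), at log2 values from -0.51 to -0.64 in these fits. Those were the only 2 of 12 fits with 1 library left out that passed. Over the 12 fits the value ran from -0.64 to -0.31, with an adjusted p of up to 0.209. On total counts the interaction did not pass (-0.44, adjusted p 0.147).

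Mt1 was at 141, 136 and 135 CPM with Vehicle, 164, 223 and 186 CPM with ISO and 156, 150 and 148 CPM with SR-3420. It rose by 0.48 ± 0.09 with ISO (log2, adjusted p 0.000212), a call that total counts did not give (0.17, adjusted p 0.177). With SR-3420 the log2 fold change was 0.14 (95% interval from -0.064 to 0.35, adjusted p 0.223), and -0.019 on total counts, although the libraries lay above those of Vehicle. Under inhibitors Mt1 was at 120 to 143 CPM with Vehicle, 137 to 161 CPM with ISO and, with SR-3420, 145 to 170 CPM, and no change passed the test. The interactions did not pass either, at -0.28 ± 0.13 for ISO (adjusted p 0.116) and 0.083 ± 0.13 for SR-3420 (adjusted p 0.688). Per kilobase, the ratio of Mt2 to Mt1 within a library was 0.208 ± 0.0292 (SD, n = 3) with Vehicle, 0.288 ± 0.0376 with ISO and 0.481 ± 0.0554 with SR-3420. With Lipase Inh. + SR-3420 it was 0.234 ± 0.0495. The SR-3420 libraries, from 0.418 upwards, lay above every other library, where the highest was 0.322.

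With inhibitors alone, Gclm was the member that passed the test. It rose by 0.27 ± 0.06 (log2, adjusted p 0.0284), which was 1 of 10 members where 0.913% of all genes passed, and was lost without any single library except replicate 2 of Vehicle (adjusted p up to 0.167) and on total counts (adjusted p 0.305). The Gclm call was also lost without the filter on low counts (adjusted p 0.0677) and with only the groups compared in the fit (adjusted p 0.210). Hmox1, Srxn1 and Osgin1 had larger log2 fold changes of 0.63, 0.30 and 0.40 but did not pass the test (adjusted p 0.254, 0.454 and 0.243). For Hmox1 the value passed without the filter on low counts (0.62, adjusted p 0.0196) and with only the groups compared in the fit (0.62, adjusted p 0.0231). It also passed with the replicate number as a block (0.60, adjusted p 0.00570). The Hmox1 value did not pass on total counts (0.61, adjusted p 0.331) or in any fit with 1 library left out (adjusted p 0.259 to 0.680).

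Under inhibitors ISO raised 5 of the 10 genes (Srxn1, Gclc, Hmox1, Txnrd1 and Mt2) and lowered Osgin1, where 57.7% of all genes passed, 29.4% upwards and 28.3% downwards, and 3 rose at least 2-fold against 5.43% of all genes. SR-3420 under inhibitors raised Osgin1 alone, where 4.34% of all genes passed. The interaction passed for 5 members with ISO and for 6 with SR-3420, against 31.4% and 27.3% of all genes. Its sign split the genes. For ISO it was positive for Srxn1, Gclc, Gclm and Gsr and negative for Osgin1, where 14.9% of all genes were positive and 16.6% negative. For SR-3420 it was positive for Gclm and Gsr and negative for Osgin1, Hmox1, Mt2 and Txnrd1, where 12.5% were positive and 14.8% negative.

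Set against each other, ISO and SR-3420 differed for 5 members, where 29.7% of all genes did, 15.8% being higher with ISO and 13.9% lower. Srxn1 (1.28 ± 0.15, log2 of ISO over SR-3420, adjusted p 1.07e-06), Gclc (1.17 ± 0.10, adjusted p 9.42e-09) and Mt1 (0.34 ± 0.09, adjusted p 0.00960) were higher with ISO. Osgin1, as given above, and Mt2 (-0.39 ± 0.14, adjusted p 0.0372) were higher with SR-3420. The Mt1 difference was lost without replicate 2 of ISO (0.21, adjusted p 0.107) and on total counts (0.19, adjusted p 0.189), and that of Mt2 without replicate 1 or 3 of ISO or 2 or 3 of SR-3420 (adjusted p 0.107 to 0.166). For Txnrd1 the difference was -0.0079 with a 95% interval from -0.18 to 0.16. Under inhibitors the corresponding comparison passed for Srxn1 (2.72), Gclc (2.02), Hmox1 (1.15) and Txnrd1 (0.56), all higher with ISO, and for Osgin1 (-1.05), 5 members where 56.9% of all genes passed, 28.6% higher with ISO and 28.3% lower.

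In Vehicle cells the level per kilobase was highest for Mt1, at 253 ± 5.75 CPM per kb (SD, n = 3). Hmox1 followed at 87.6 ± 2.75, then Srxn1 at 67.3 ± 2.31 and Gclm at 66.4 ± 2.16, which did not differ beyond their spread. Mt2 (52.5 ± 6.46) and Txnrd1 (50.1 ± 2.71), and likewise Gclc (29.6 ± 3.51) and Gsr (26.3 ± 0.958), were also within their spread. Osgin1 (7.63 ± 0.434) and Nqo1 (4.39 ± 0.0515) were lowest. The members are not spread evenly over the genome, since 6 of the 10 lie on chromosome 8, which carries 5.57% of the genes tested.

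The 10 genes did not move as a block over the 18 libraries. Of the 45 pairs, 17 had a negative correlation of log2 CPM, and Pearson's r ran from -0.90 for Gsr and Osgin1 to 0.97 for Gclc and Srxn1. Gclm and Gsr (0.87), Gsr and Nqo1 (0.84), Gclm and Nqo1 (0.83), Hmox1 and Txnrd1 (0.87), Txnrd1 and Srxn1 (0.84), and Osgin1 and Mt2 (0.82) were further close pairs, whereas Gclc and Gclm reached 0.34 and Mt1 and Mt2 0.56. These values describe libraries that share treatments and scaling factors. Among 9353 other genes of average log2 CPM 3 or more, those most like Srxn1 were Dos, Ctnna1 and Xdh (r of 0.99 for each), those most like Gclc were Coa5, Add3 and Lrrn4cl (0.98 for each), and those most like Osgin1 were Bcar1 (0.98), Gdf15 (0.97) and Spty2d1 (0.97). Hmox1 was most like Ccdc137, Mat2a and Hsph1 (0.95 to 0.96), Txnrd1 like Tbrg4, Tnfrsf1a and Arntl (0.96 for each), and Mt2 like Ythdf1 (0.95), Pprc1 (0.94) and Zfp384 (0.94). Gclm was most like Zfp324, Tpcn1 and Slc35e2 (0.92 to 0.94), Gsr like Dgcr8, Swsap1 and Rgs2 (0.95 for each), and Mt1 like Cfl2 (0.89), Anxa5 (0.88) and Srp72 (0.84). For Nqo1 they were Zfp606 (0.88), Brd3 (0.87) and Keap1 (0.87), the last being the NRF2 inhibitor.

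**Figure D4:**
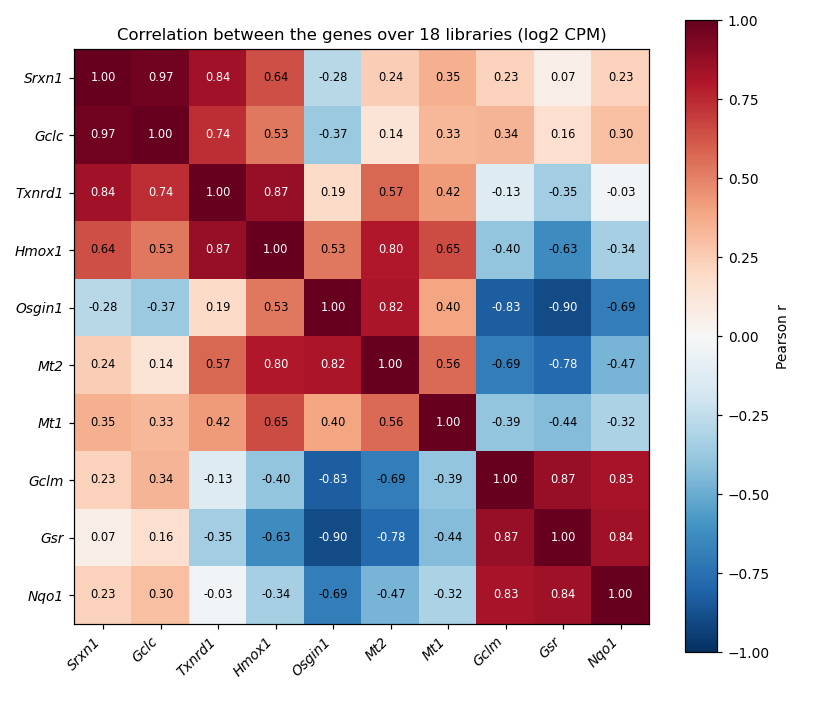
Pearson correlation of log2 CPM between each pair of the 10 genes over the 18 libraries, as colour and as number, on a scale from -1 to 1. Srxn1 and Gclc (0.97) form one block, Gclm, Gsr and Nqo1 (0.83 to 0.87) another that runs against Osgin1 (-0.69 to -0.90).

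Of 9 regulators of NRF2 tested, 5 rose and 1 fell with ISO and 7 rose and 1 fell with SR-3420, where 51.8% and 51.4% of all genes passed in either direction. On total counts 5 instead of 8 passed with SR-3420, where the share of all genes was not determined. Nfe2l2 itself was at 144 ± 15.6 CPM with Vehicle (SD, n = 3), and ISO raised it to 197 ± 3.78 CPM (log2 fold change 0.45 ± 0.08, adjusted p 3.49e-05), SR-3420 to 241 ± 6.54 CPM (0.74 ± 0.08, adjusted p 4.76e-08). Keap1 fell by 0.44 ± 0.07 and 0.49 ± 0.07 (log2), like Gclm, Gsr and Nqo1. The small MAF gene Maff (1.51 ± 0.12 and 1.24 ± 0.12) and Sqstm1, whose protein binds KEAP1 (0.73 ± 0.07 and 0.90 ± 0.07), rose with both, as did Cul3 (0.66 ± 0.10 and 0.38 ± 0.10). Bach1 had log2 fold changes of 0.013 and -0.026, neither past the test. Under inhibitors, however, Bach1 was lower with ISO, at 80.2 ± 2.01 CPM (SD, n = 3), than with Vehicle, at 107 ± 5.42 CPM, or with SR-3420, at 114 ± 9.41 CPM. The interaction was -1.34 ± 0.10 for Sqstm1 with ISO, -0.92 ± 0.17 for Maff with either stimulus and -0.65 ± 0.11 for Nfe2l2 with SR-3420 (adjusted p of at most 0.000404 for each).

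Of 17 other genes linked to NRF2 that were tested, of 18 listed, 4 rose and 4 fell with ISO, and 2 rose and 9 fell with SR-3420, with median log2 fold changes of 0.071 and -0.32 where those of all genes were -0.021 and -0.017. The count with ISO was near the 51.8% of all genes that passed, and that with SR-3420 stands against 51.4%. On total counts 13 instead of 8 passed with ISO, where the share of all genes was not determined. The cystine transporter gene Slc7a11 (1.57 ± 0.14 with ISO, 2.24 ± 0.14 with SR-3420) and Sesn2 (1.19 ± 0.08 and 1.72 ± 0.08) were higher with both and had interactions from -1.40 to -1.59, the direction of Osgin1. The carbonyl reductase gene Cbr1 rose with ISO (0.77 ± 0.08), more so under inhibitors (1.18 ± 0.08, interaction adjusted p 0.00440), and had -0.14 ± 0.08 with SR-3420 (adjusted p 0.124). Gstm1, a glutathione transferase gene, fell by 0.52 ± 0.10 with ISO and by 1.19 ± 0.10 with SR-3420.

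Of 12 other antioxidant enzymes, 4 rose and 2 fell with ISO, and 2 rose and 9 fell with SR-3420, against the same 51.8% and 51.4% of all genes. Gpx1 rose with both (0.66 ± 0.08 and 0.52 ± 0.08) and Gpx3 fell with both (-0.42 ± 0.08 and -0.93 ± 0.08). Sod2, the mitochondrial superoxide dismutase, rose with ISO (0.38 ± 0.07) and fell with SR-3420 (-0.40 ± 0.07), and Prdx2 fell with SR-3420 (-0.58 ± 0.09) with -0.10 ± 0.08 for ISO (adjusted p 0.342). Of 4 zinc genes tested of 7 listed, 3 rose with ISO, and 3 rose and 1 fell with SR-3420, too few to read against 51.8% and 51.4%. Mtf1 rose by 0.97 ± 0.08 and 0.90 ± 0.08 and the zinc exporter gene Slc30a1 by 1.00 ± 0.08 and 0.94 ± 0.08, for ISO and SR-3420 in turn. Slc39a14 rose with ISO (0.45 ± 0.09) and with SR-3420 (0.24 ± 0.09), and Slc39a10 fell by 0.58 ± 0.10 with SR-3420. The metallothionein genes Mt3 and Mt4 and the transporter gene Slc30a10 had 0 to 3 counts per library. Around haem, 1 of 8 genes rose and 4 fell with ISO, and 0 rose and 5 fell with SR-3420, again against 51.8% and 51.4%. Alas1, the first enzyme of haem synthesis, rose by 0.64 ± 0.09 with ISO, and under inhibitors by 1.88 ± 0.09, while Slc48a1, Fech and Fth1 fell with both stimuli (-0.21 to -0.62).

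**Figure D5:**
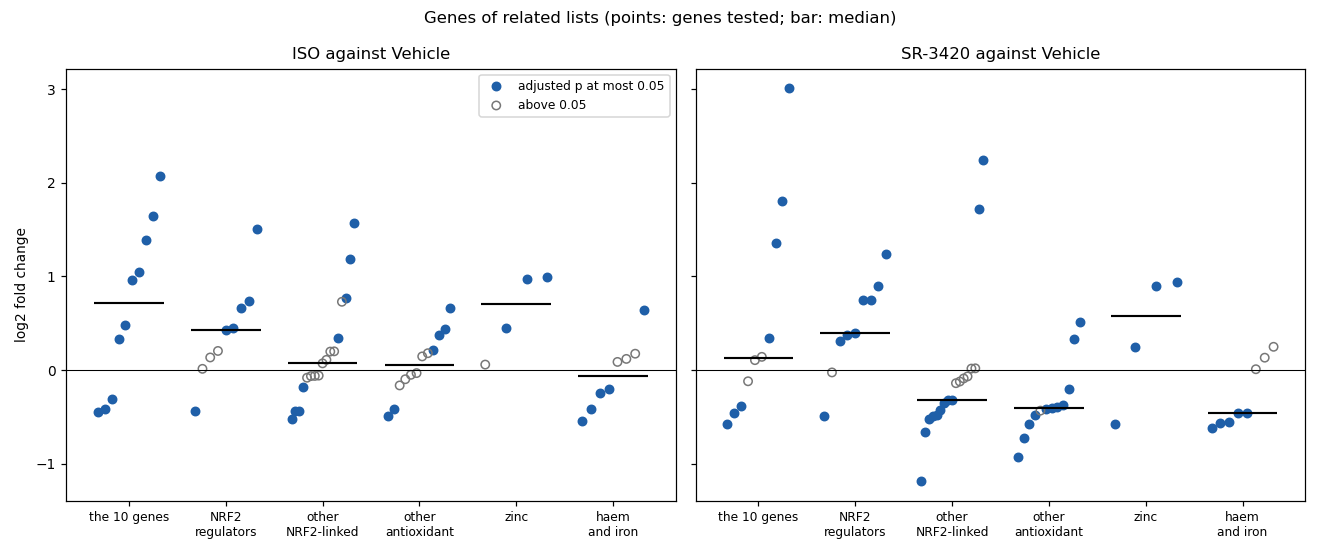
log2 fold change of the 10 genes and of the genes tested in 5 related lists, against Vehicle, with ISO on the left and SR-3420 on the right. Filled points have an adjusted p of at most 0.05, open points do not, and the bar is the median of the list. The median of other NRF2-linked genes was 0.071 with ISO and -0.32 with SR-3420.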

How the data were processed

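RNA-seq was performed by the authors on TRIzol-extracted total RNA with TruSeq libraries. Reads were aligned by the authors to mm9 with STAR 2.4.2a, collected with HOMER, per the methods with 1 read allowed per position and length, and summed per RefSeq gene by iRNA-seq. Deposited were whole-number counts, neither normalised nor filtered, for 20295 genes in 18 libraries, with position and counted length. Counts per base reach 320 for Scd1 and 5.22 for Mt1, so no cap of 1 read per position is visible. Columns of no listed sample numbered 0.

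Sample titles gave the group and replicate number. Genes were kept with filterByExpr of edgeR 4.0.16 in R 4.3.3 (minimum count 10, minimum total 15), TMM factors were applied, and 1 quasi-likelihood model with a mean per group was fitted to all 18 libraries. Benjamini-Hochberg adjustment covered 12156 genes. Standard errors were derived from the fold change and its F statistic. The 95% intervals used 12 residual degrees of freedom, fewer than the test, which shares information on the spread across genes. They are therefore somewhat wider than the p-values of the test imply. Levels are TMM-scaled CPM. Correlations used log2 CPM with a prior count of 2. Promoter windows were read from the mm9 genome at the starts of the table, which lay within 4 bases of GENCODE vM1 starts for the 10 genes.

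The genes and lists were chosen with earlier results of these data known. From each list, the 3 genes with the smallest p for ISO and the 3 with the smallest p for SR-3420 are named, with Nfe2l2, Keap1, Bach1, Mtf1, Slc30a1 and Slc7a11 in any case, and the 3 genes most correlated with each member. Counts simulated for ISO against Vehicle with 200 genes changed 3-fold gave 198 recovered (99%) and 1 other call among 12041 genes tested. The changes were balanced up and down, at 1 fixed dispersion. This checks that the fit runs correctly, and says nothing about the smaller changes or the scaling shifts in the real data. Alternatives were DESeq2 1.42.0, RLE factors, total counts, no filter, a filter of at least 50 counts in 3 samples, only the groups compared, the replicate number as a block, and each library left out. Without molecular identifiers, count precision covers counting error only.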

Additional observations from a re-analysis of the deposited data

Results flagged for a closer look

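The responses with and without inhibitors differed by the test of the interaction (edgeR's quasi-likelihood test, adjusted p at most 0.05) for 11 pairs of gene and stimulus, each given as the log2 fold change with inhibitors minus that without. For ISO, Gclc (1.17) and Srxn1 (1.15) responded more strongly with inhibitors, Gclm (0.30) and Gsr (0.31) fell without inhibitors and did not pass the test with them, and Osgin1 (-2.04) rose without inhibitors and fell slightly with them. For SR-3420, Osgin1 (-2.36), Hmox1 (-1.64), Mt2 (-1.16) and Txnrd1 (-0.31) responded less with inhibitors, and the falls of Gclm (0.39) and Gsr (0.41) were smaller.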

How the results depend on the processing

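The calls with ISO and SR-3420 for Hmox1, Osgin1, Gclm and Gsr, those with ISO for Srxn1 and Gclc and those with both for Mt2 kept an adjusted p of at most 0.05 under every alternative run. Values that turned sign on total counts had not passed the test by TMM. They were those of Srxn1 (-0.054) and Mt1 (-0.019) with SR-3420, Nqo1 (-0.12) and Mt1 (-0.026) with ISO under inhibitors, Txnrd1 (-0.074) with SR-3420 under inhibitors, and Nqo1 (-0.016), Gclm (-0.059) and Gsr (-0.065) between ISO and SR-3420 under inhibitors. On total counts the median gene itself shifted by -0.16 with SR-3420 and by -0.23 with ISO under inhibitors. The shift was -0.096 with SR-3420 under inhibitors and -0.13 between ISO and SR-3420 under inhibitors. What lies behind these shifts was not tested. Without the filter on low counts, the ISO interactions of Hmox1 (adjusted p 0.00606) and Mt2 (adjusted p 0.0221) and the effect of inhibitors alone on Hmox1 (adjusted p 0.0196) passed. Lost without it were the calls of Gclm with inhibitors alone (adjusted p 0.0677) and of Nqo1 with SR-3420 (adjusted p 0.0780). On total counts 5 instead of 8 NRF2 regulators passed with SR-3420, 13 instead of 8 other NRF2-linked genes passed with ISO, and 0 instead of 1 members passed with inhibitors alone. The shares of all genes passing on total counts were not determined, so these counts are not read as results about the lists.

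With single libraries left out, values near 0 also turned sign. With inhibitors alone these were Nqo1 (-0.063 to 0.13), Txnrd1 (-0.015 to 0.062) and Mt1 (-0.11 to 0.0094). Under inhibitors they were Nqo1 (-0.017 to 0.22) and Gclm (-0.046 to 0.023) with ISO, Nqo1 (-0.16 to 0.068) with SR-3420, and Mt1 between both stimuli (-0.071 to 0.062). The others were the SR-3420 interaction of Mt1 (-0.0028 to 0.14) and the difference of ISO from SR-3420 for Hmox1 (-0.072 to 0.51), Nqo1 (-0.13 to 0.029) and Txnrd1 (-0.067 to 0.062). Members past the adjusted p then numbered 0 to 1 both with inhibitors alone and with SR-3420 under inhibitors.

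Same-numbered libraries deviated together in 12 of 15 pairs for number 2 and 15 of 15 for number 3 (r over 0.1), but in 1 of 15 for number 1. Their mean r was 0.11, against -0.055 for pairs of different number and group, and 14 of 18 libraries correlated best with their own number. The labels do not say what the number stands for. The main fit held no block for it, so its p-values do not account for these shared deviations. With the replicate block, 8 instead of 5 members passed the ISO interaction, Hmox1 (-0.72, adjusted p 0.00160), Txnrd1 (0.26, adjusted p 0.0127) and Mt2 (-0.52, adjusted p 0.0296) being added, and 2 instead of 1 passed with inhibitors alone, with Hmox1 added (0.60, adjusted p 0.00570). Mt1 passed with ISO under inhibitors (0.20, adjusted p 0.0451), and the block changed no other member's call. The share of all genes passing with the block was not determined, so these counts are not read as a result about the members.

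Depth limits Nqo1 and, in the shallow Lipase Inh. + SR-3420 library, Osgin1 and Mt2, which had 95 and 100 counts there.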
